A study of Mus musculus with 3 samples.

Results

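The genes described are 9 regulators of selective autophagy, of 32285 genes in the count matrices. They are the cargo receptors Sqstm1 (ENSMUSG00000015837), Nbr1 (ENSMUSG00000017119), Optn (ENSMUSG00000026672), Tax1bp1 (ENSMUSG00000004535), Calcoco1 (ENSMUSG00000023055) and Fundc1 (ENSMUSG00000025040), the transcription factors Tfeb (ENSMUSG00000023990) and Tfe3 (ENSMUSG00000000134), and Rubcn (ENSMUSG00000035629), an inhibitor of autophagy. They were picked by name and role, and all 9 had UMIs (unique molecular identifiers, each counting 1 captured mRNA molecule) in the barcodes kept. The samples, labelled as mouse non-small cell lung cancer, were single-cell libraries of 10x Genomics 3′ chemistry in 3 groups of 1 library each, named AI-Exo, PD-L1 and PBS. The labels spell out neither AI-Exo nor PD-L1, while the title of the series speaks of exosomes that inhibit autophagy and its design text of drug treatment, and PBS (phosphate-buffered saline) is the vehicle. Mouse strain, tumour cells, age, dose, time, a sort for immune cells and pooling of animals were not given in the sources used here. With 1 library per group no difference could be tested against the spread between animals, and every interval below is a 95% interval that covers counting error only.

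Selective autophagy delivers chosen cargo such as protein aggregates, damaged mitochondria or bacteria to lysosomes. Cargo receptors bind the cargo, often through ubiquitin, and tether it to LC3 and related ATG8 proteins on the growing autophagosome membrane. TFEB and TFE3 enter the nucleus when mTORC1 signalling is low and switch on lysosomal and autophagy genes through E-box motifs, whereas Rubicon, the protein made from Rubcn, binds the Beclin 1 PI3-kinase complex, slows autophagosome maturation and serves LC3-associated phagocytosis in phagocytes. The counts measure mRNA and hold no measure of autophagic flux or of receptor protein, which autophagy itself degrades.

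Barcodes with at least 500 UMIs, at least 200 genes and at most 20% mitochondrial UMIs numbered 10457 in AI-Exo, 9697 in PD-L1 and 9359 in PBS, with median depths of 4425, 3948 and 4380 UMIs, and pairs of libraries shared 23 to 33 barcode sequences. Marker genes placed 8582 of them in AI-Exo, 7951 in PD-L1 and 7718 in PBS into 24 classes, named as cell-type-like because they rest on markers alone. Barcodes that met the gates of more than 1 lineage (842, 733 and 667) were left out as possible doublets. The classes were almost wholly immune, with 3, 5 and 3 barcodes like alveolar or airway epithelium, and 44, 22 and 44 barcodes with the epithelial and embryonic genes Hmga2, Rhox5 and Krt8. Class sizes differed between libraries, since B-like barcodes numbered 2903, 1851 and 1285, monocyte-like barcodes 382, 648 and 1135, and immature T-lineage-like barcodes 1, 738 and 742. Levels are CPM, the UMIs of a gene per 1000000 UMIs summed over a class in a library, given for the 16 classes with at least 50 barcodes in at least 2 of the libraries. Free RNA, measured in barcodes of at most 100 UMIs, could make up at most 1.43% to 4.86% of the UMIs of a class, or at most 18.0 CPM of Sqstm1, 8.54 CPM of Tax1bp1 and 2.17 CPM of each other member.

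Promoter sequences of all 9 members were found in RefSeq (mouse build GRCm38.p6) as 15 windows of 250 bases before to 50 bases after a transcription start. They were searched on both strands for CACGTG, the E-box within the CLEAR element that TFEB and TFE3 bind, for the longer TCACGTG, which overlaps it, and for the full CLEAR element, a palindrome of 10 letters with CACGTG at its core, and for TGACNNNGC, the antioxidant response element bound by NRF2. A CACGTG was found in 1 of the 15 windows, a window of Rubcn, where it belongs to a TCACGTG 89 bases upstream of the start. Of all 32851 mouse promoter windows, 7.15% hold CACGTG and 3.77% hold TCACGTG. The full CLEAR element was in none of the 15 windows and in 0.326% of all windows. A TGACNNNGC was found in 1 of the 15 windows, 205 bases upstream of the second listed start of Tax1bp1, against 12.4% of all windows. The 250 upstream bases of these windows, Tax1bp1 at chr6:52713915-52714164 on the plus strand and Rubcn at chr16:32868367-32868616 on the minus strand, are shown with the match in capitals because they are the only windows with either motif, and a match in letters is not a measured binding site.
Tax1bp1: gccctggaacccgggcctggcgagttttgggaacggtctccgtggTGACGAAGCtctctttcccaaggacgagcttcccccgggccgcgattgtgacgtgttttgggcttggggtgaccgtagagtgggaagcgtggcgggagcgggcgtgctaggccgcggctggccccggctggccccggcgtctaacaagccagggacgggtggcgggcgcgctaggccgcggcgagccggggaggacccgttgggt
Rubcn: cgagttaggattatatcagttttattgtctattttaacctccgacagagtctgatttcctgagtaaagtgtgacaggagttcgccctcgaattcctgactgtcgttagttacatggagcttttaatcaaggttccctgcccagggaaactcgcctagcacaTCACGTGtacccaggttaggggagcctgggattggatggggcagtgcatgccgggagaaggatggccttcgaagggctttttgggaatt
No window of Sqstm1, Tfeb or Tfe3 held CACGTG, and none of Sqstm1, whose human promoter carries an NRF2 element, held TGACNNNGC within these 300 bases. Motifs added after the expression data had been seen were GAGGAAGT for PU.1, found in 3.2% of all windows, TTGCNNAA for C/EBP factors, found in 10.8%, and palindromic sites for EBF1 and NF-kB, found in 0.904% and 1.47%. Of these, a TTGCNNAA 19 bases downstream of the second listed start of Tfeb was the only match among the members.

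Each member had its own ordering over the cell types. Optn was concentrated in neutrophil-like barcodes and Rubcn in B-like ones, Sqstm1 was highest in alveolar macrophage-like barcodes, Tfeb and Tfe3 had neutrophil-like, nonclassical monocyte-like and alveolar macrophage-like barcodes among their 4 highest classes, Fundc1 was highest in cDC1-like barcodes and lowest in neutrophil-like ones, and Tax1bp1 was the most even. These orderings describe single libraries of each group. Neighbouring classes are called separate only where their ranges over the libraries do not overlap.

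**Figure D1:**
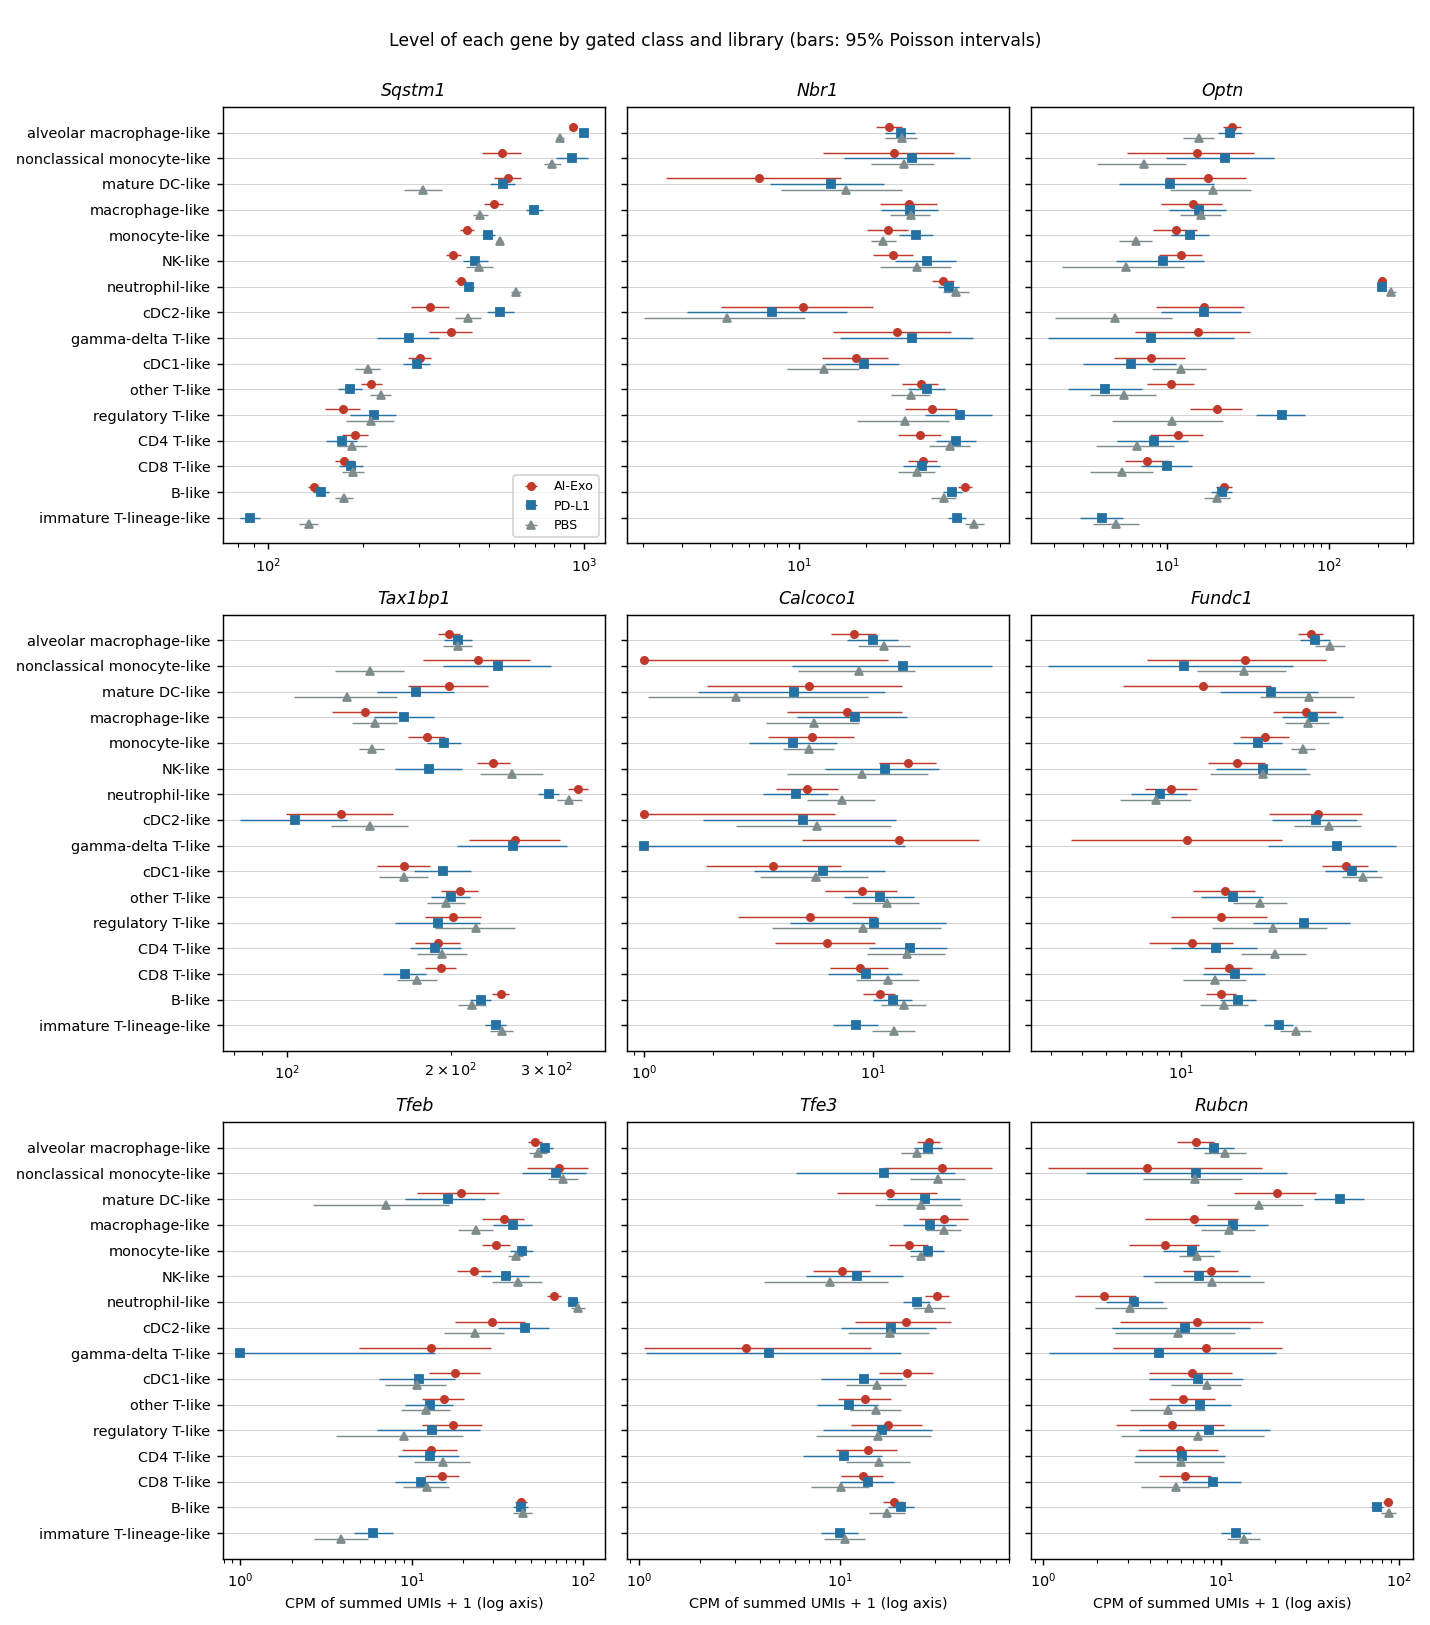
CPM + 1 of the 9 members (log axis) in each of the 16 cell-type-like classes, 1 point per library for AI-Exo, PD-L1 and PBS, with bars for the 95% counting interval and a separate axis for each gene. Optn in neutrophil-like barcodes (213, 213 and 243 CPM) and Rubcn in B-like barcodes (85.3, 74.3 and 86.3 CPM) stand apart from the other classes in each library.

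Sqstm1 makes p62, the receptor that binds ubiquitin, LC3 and the NRF2 inhibitor KEAP1. In alveolar macrophage-like barcodes it stood at 921 CPM in AI-Exo, 993 in PD-L1 and 837 in PBS, from 7870, 5506 and 4108 UMIs. Nonclassical monocyte-like barcodes followed with 547, 912 and 791 CPM, mature DC-like with 571, 550.0 and 308 CPM, and macrophage-like with 515, 693 and 467 CPM. At the other end were B-like barcodes with 139, 146 and 172 CPM and immature T-lineage-like barcodes with 86.8 CPM in PD-L1 and 133 in PBS. The 5 classes with the highest medians were macrophage, monocyte and mature DC classes, and the 6 lowest were T and B cell classes. Between them, NK-like barcodes (384, 451 and 464 CPM) and gamma-delta T-like barcodes (377 and 277 CPM in AI-Exo and PD-L1) lay among neutrophil-like, cDC2-like and cDC1-like ones. The highest class was 8.37-fold above the lowest by the medians over libraries, and 2 of 15 neighbouring pairs of classes did not overlap. With each barcode thinned to 1000 UMIs, the share of alveolar macrophage-like barcodes with a Sqstm1 UMI was 49.6%, 54.7% and 43.6% (94.7%, 93.5% and 89.5% unthinned), against 10.99% and 13.9% of immature T-lineage-like barcodes in PD-L1 and PBS (47.7% and 50.4% unthinned). Median depths differed widely between those classes, at 13264, 12190 and 10616 UMIs in the alveolar macrophage-like class and 4989 and 5227 in the immature T-lineage-like class. The gene Mrnip lies on the opposite strand and overlaps Sqstm1, and whether the counting used strand was not given in the sources used here, so some reads of either may have been counted for the other.

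Optn encodes optineurin, which recruits LC3 to ubiquitin-coated mitochondria and bacteria once the kinase TBK1 phosphorylates it. Neutrophil-like barcodes held 213 CPM in AI-Exo, 213 in PD-L1 and 243 in PBS, from 1433, 1413 and 1044 UMIs. Next came alveolar macrophage-like barcodes with 24.2, 23.4 and 14.7 CPM and B-like barcodes with 21.4, 20.7 and 19.4 CPM, while immature T-lineage-like barcodes held 2.92 in PD-L1 and 3.83 in PBS. The neutrophil-like range did not overlap any other class, and the span from the highest to the lowest class, 63.1-fold, was the widest of the 9 members. After thinning, 19.3%, 19.3% and 20.8% of neutrophil-like barcodes had an Optn UMI (47.8%, 42.5% and 42.2% unthinned), against 1.63%, 1.52% and 1.88% of B-like barcodes (7.85%, 7.29% and 6.46% unthinned). The depths behind those shares were closer, with medians of 3084, 2809 and 2536 UMIs in neutrophil-like and 3810, 3604 and 3211 in B-like barcodes. A noncoding gene, 4930551O13Rik, overlaps Optn on the opposite strand.

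Tax1bp1 encodes a receptor for ubiquitinated aggregates and bacteria that also works with the NF-kB inhibitor A20. Its levels were 342 CPM in AI-Exo, 302 in PD-L1 and 329 in PBS in neutrophil-like barcodes, the highest of the 16 classes. The lowest were 125, 103 and 141 CPM in cDC2-like barcodes. B-like barcodes held 246, 226 and 218 CPM and immature T-lineage-like barcodes 241 and 247 CPM in PD-L1 and PBS. The span of 2.64-fold was the narrowest of the 9 genes. Outside the 16 classes, endothelial-like barcodes of PD-L1, the only library with at least 50 of them, held 541 CPM (459 to 633). Unnamed or pseudogene models (Gm43966 and Gm43967) overlap Tax1bp1 on the opposite strand.

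Nbr1 encodes a ubiquitin-binding partner of p62. It was highest where Sqstm1 was lowest, at 50.3 CPM in PD-L1 and 60.4 in PBS in immature T-lineage-like barcodes and 54.5, 47.9 and 43.7 CPM in B-like barcodes of AI-Exo, PD-L1 and PBS. Neutrophil-like barcodes were close, with 43.5, 46.1 and 49.6 CPM, and CD4 T-like barcodes held 34.0, 49.8 and 46.5 CPM. The lowest values were 9.47, 6.58 and 3.76 CPM in cDC2-like barcodes, resting on 6, 5 and 4 UMIs, and 5.64, 12.9 and 15.2 CPM in mature DC-like barcodes. Across the 47 sums of a class and library with at least 50 barcodes, the Pearson correlation of log2(CPM + 1) was -0.40 between Nbr1 and Sqstm1 and 0.58 between Nbr1 and Tax1bp1. Those correlations are descriptions, since sums of 1 library share its depth and free RNA and sums of 1 cell type share their cells.

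Fundc1 sits in the outer mitochondrial membrane and acts in mitophagy under low oxygen. Its levels were 45.2 CPM in AI-Exo, 48.0 in PD-L1 and 53.1 in PBS in cDC1-like barcodes, and 34.7, 34.2 and 38.6 CPM in cDC2-like barcodes. Alveolar macrophage-like barcodes held 32.5, 33.9 and 39.1 CPM and macrophage-like barcodes 30.9, 33.3 and 31.5 CPM. Neutrophil-like barcodes were lowest with 8.17, 7.23 and 6.98 CPM. Conventional dendritic and macrophage classes were thus high and neutrophils low, whereas Optn and Tax1bp1 had their highest level of the 16 classes in neutrophils. Calcoco1, an ER-phagy and Golgi-phagy receptor, was the scarcest member with 1233 UMIs in all gated barcodes. Its levels were 5.29, 13.4 and 13.1 CPM in CD4 T-like barcodes, 9.67, 11.2 and 12.7 CPM in B-like barcodes and 4.16, 3.61 and 6.28 CPM in neutrophil-like barcodes. No neighbouring classes of Calcoco1 were separate. Among classes too small for the comparisons, pDC-like barcodes held 15, 5 and 4 Calcoco1 UMIs in 16, 15 and 9 barcodes.

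Tfeb, the transcription factor, was highest in neutrophil-like barcodes, with 66.7 CPM in AI-Exo, 86.7 in PD-L1 and 92.9 in PBS, and in nonclassical monocyte-like barcodes, with 71.6, 68.7 and 75.6 CPM. Alveolar macrophage-like barcodes held 51.7, 59.0 and 54.0 CPM, B-like barcodes 42.7, 42.3 and 43.6 CPM, and monocyte-like barcodes 30.3, 42.9 and 39.5 CPM. T cell, cDC1 and mature DC classes were low, with 14.1, 10.4 and 11.3 CPM in CD8 T-like barcodes, 17.0, 10.0 and 9.70 CPM in cDC1-like barcodes, 18.3, 15.2 and 6.10 CPM in mature DC-like barcodes, and 4.99 and 2.87 CPM in immature T-lineage-like barcodes of PD-L1 and PBS. B cells therefore had a level of Tfeb near that of monocytes and well above T cells. Thinned shares of neutrophil-like barcodes with a Tfeb UMI were 6.73%, 8.03% and 8.71% (21.5%, 22.2% and 21.8% unthinned), against 0.543% and 0.27% of immature T-lineage-like barcodes in PD-L1 and PBS (4.61% and 2.43% unthinned). The barcodes with Hmga2, Rhox5 and Krt8 held 4.70, 6.09 and 3.27 CPM of Tfeb. Tfe3, its close relative, stood at 32.2, 27.3 and 32.2 CPM in macrophage-like barcodes, 29.6, 23.3 and 27.0 CPM in neutrophil-like barcodes, and 26.8, 26.7 and 23.4 CPM in alveolar macrophage-like barcodes. In NK-like barcodes Tfe3 held 9.32, 11.2 and 7.96 CPM. The Pearson correlation of Tfeb with Tfe3 over the 47 sums was 0.66, the highest between any members.

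Rubcn was highest in B-like barcodes in each library. They held 85.3 CPM in AI-Exo, 74.3 in PD-L1 and 86.3 in PBS, from 1112, 596 and 450 UMIs, and the next class, mature DC-like, held 19.7, 45.6 and 15.2 CPM from 14, 39 and 10 UMIs. Neutrophil-like barcodes held 1.19, 2.26 and 2.09 CPM, where free RNA could give up to 0.473, 0.47 and 0.448 CPM, and alveolar macrophage-like barcodes 6.20, 8.12 and 9.57 CPM. Macrophage-like barcodes held 6.05, 10.7 and 10.0 CPM and NK-like barcodes 7.82, 6.54 and 7.96 CPM. Little Rubcn mRNA was thus found in these phagocytes, in which LC3-associated phagocytosis is best known, but was not particular to them. Cybb, the NADPH oxidase partner of Rubicon, stood at 1279, 1167 and 1127 CPM in alveolar macrophage-like barcodes and 289, 309 and 283 CPM in B-like barcodes. After thinning, 8.87%, 6.09% and 8.46% of B-like barcodes had a Rubcn UMI, against 0.14%, 0 and 0.382% of neutrophil-like ones (27.6%, 23.1% and 25.0% against 0.553%, 0.684% and 0.674% unthinned). The exact interval of the 0 reaches 0.197%. Plasma-like barcodes, with 19, 11 and 37 barcodes, held 4.59, 7.96 and 3.92 CPM. Fyttd1 overlaps Rubcn on the opposite strand. It held 61.4, 63.2 and 54.7 CPM in B-like barcodes but also 32.6, 37.4 and 34.7 CPM in CD8 T-like barcodes, where Rubcn held 5.30, 7.96 and 4.56 CPM.

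The genes whose levels over the 47 sums were most like Sqstm1, among 5956 genes with a mean of at least 20 CPM, were Ehbp1l1 (Pearson r of log2(CPM + 1) 0.88), Iqgap1 (0.87) and Tyrobp (0.84). For Tfeb they were Sh3bp2 (0.80), Syk (0.79) and Slc25a33 (0.78), and for Optn Rabgef1 (0.82), Tgoln1 (0.78) and Ell2 (0.77). For Rubcn, added because of its level in B-like barcodes, they were the B cell genes Ms4a1 (0.81), Cd79a (0.78) and Iglc3 (0.78), which the gate used in part.

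Within the neutrophil-like class, granule-rich immature barcodes (at least 4 granule genes such as Ltf and Camp) numbered 120, 55 and 28, barcodes with both chemokine genes Ccl3 and Cxcl3 numbered 186, 144 and 200, and the rest 1141, 1701 and 1107 in AI-Exo, PD-L1 and PBS. The states are ranges of a marker count, with 11, 12 and 6 barcodes at exactly 4 granule genes and 45, 35 and 41 with 3, and 556, 638 and 460 with 1 of the 2 chemokine genes. Sqstm1 was low in the immature state, at 200.4, 157 and 263 CPM, against 443, 447 and 583 CPM in the remaining neutrophils, which is a log2 difference of -1.14, -1.50 and -1.15. Tfeb followed the same order, with 31.5, 43.1 and 37.5 CPM in the immature state against 78.9, 89.3 and 98.5 CPM in the rest. Optn differed less, at 145, 216 and 202 CPM in the immature state, 208, 216 and 228 CPM in the chemokine state and 236, 212 and 249 CPM in the rest, a log2 difference between the immature state and the rest of -0.70, 0.02 and -0.30. The high Optn of neutrophils was thus present in each state and library, while Sqstm1 and Tfeb had a lower CPM in the granule-rich state in each of the 3 libraries. Depth differed between the states, with medians of 9492.5, 6762 and 6131 UMIs in granule-rich barcodes against 2833, 2748 and 2479 in the rest. CPM is a share of all UMIs, so these values do not show fewer Sqstm1 or Tfeb UMIs per barcode. The immature values of Tfeb rest on 45, 17 and 8 UMIs.

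**Figure D2:**
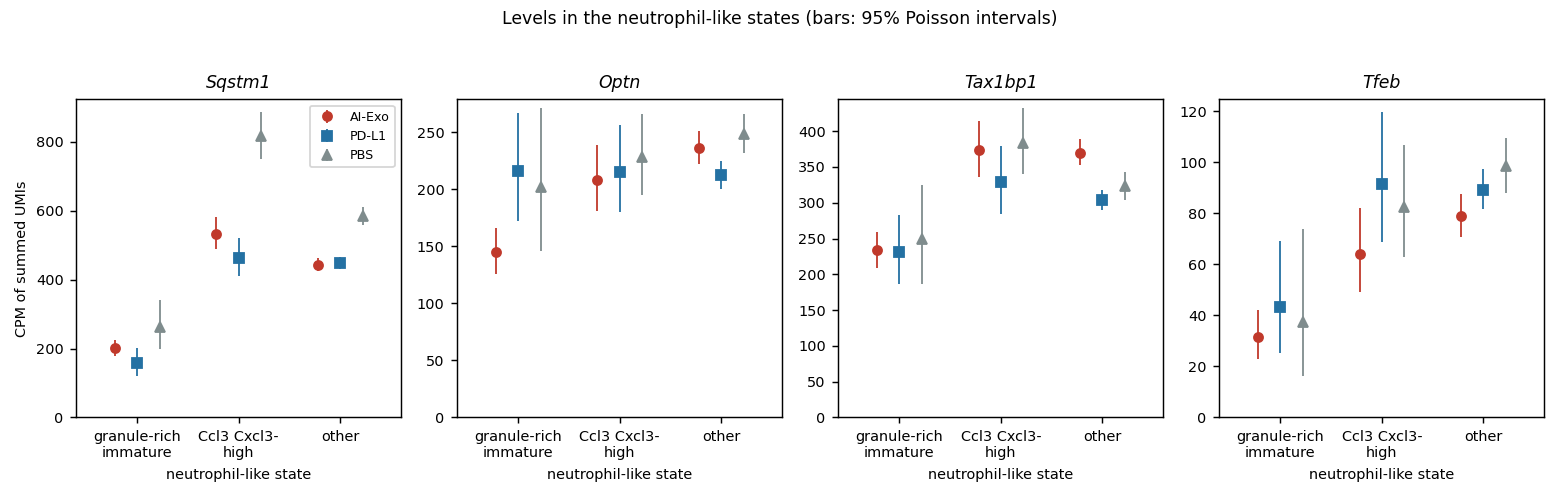
CPM of Sqstm1, Optn, Tax1bp1 and Tfeb in 3 marker-gated neutrophil states, 1 point per library with its 95% counting interval, AI-Exo, PD-L1 and PBS side by side. Sqstm1 in the chemokine state stands at 533, 463 and 816 CPM, and in the granule-rich state at 200.4, 157 and 263 CPM.

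In macrophage-like barcodes, those with at least 100 CPM of Arg1, a gene of alternatively activated macrophages, numbered 24, 15 and 64. Optn stood at 23.4, 26.5 and 22.7 CPM in them, against 10.9, 12.6 and 10.3 CPM in Arg1-negative barcodes, a log2 difference of 1.03, 1.02 and 1.07. These levels rest on 7, 6 and 26 UMIs against 13, 16 and 18, and the intervals overlapped in AI-Exo (9.41 to 48.2 against 5.82 to 18.7), in PD-L1 (9.72 to 57.6 against 7.18 to 20.4) and in PBS (14.8 to 33.3 against 6.12 to 16.3). Sqstm1 had no common direction, with differences of -0.45, -0.72 and 0.16.

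The libraries were compared by size. A gene counted as higher or lower in a class where the CPM + 1 differed by at least 1.5-fold, among genes with at least 50 UMIs over both libraries and a mean of at least 10 CPM, in classes with at least 50 barcodes in both. The comparisons of AI-Exo with PBS and of PD-L1 with PBS share the PBS library, so a gene that is high or low in PBS moves in both.

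Of 126 pairs of a member and a class in AI-Exo against PBS, over 14 classes, 77 passed the filter on low values, and 6 of these were higher and 2 lower in AI-Exo. That is 7.79% higher and 2.6% lower, beside 6.17% and 6.44% of all genes in the same classes. The median log2 ratio of the 77 pairs was -0.03. In B-like and neutrophil-like barcodes, the largest classes, no member reached 1.5-fold, where 0.528% and 8.07% of all genes were higher and 2.05% and 4.73% lower. The share of member pairs that were higher was near that of all genes, and the share that were lower was smaller, on counts of 6 and 2.

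In PD-L1 against PBS, 77 of 135 pairs over 15 classes passed the filter, and 7 were higher and 3 lower in PD-L1. The shares of 9.09% and 3.9% stand beside 5.91% and 6.4% of all genes. The median log2 ratio was -0.02. In AI-Exo against PD-L1, 75 of 135 pairs passed, with 1 higher and 6 lower in AI-Exo, or 1.33% and 8%, beside 6.03% and 5.75% of all genes, and the median was -0.08. The counts behind these shares are small, and most member pairs stayed inside 1.5-fold in all 3 comparisons.

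**Figure D3:**
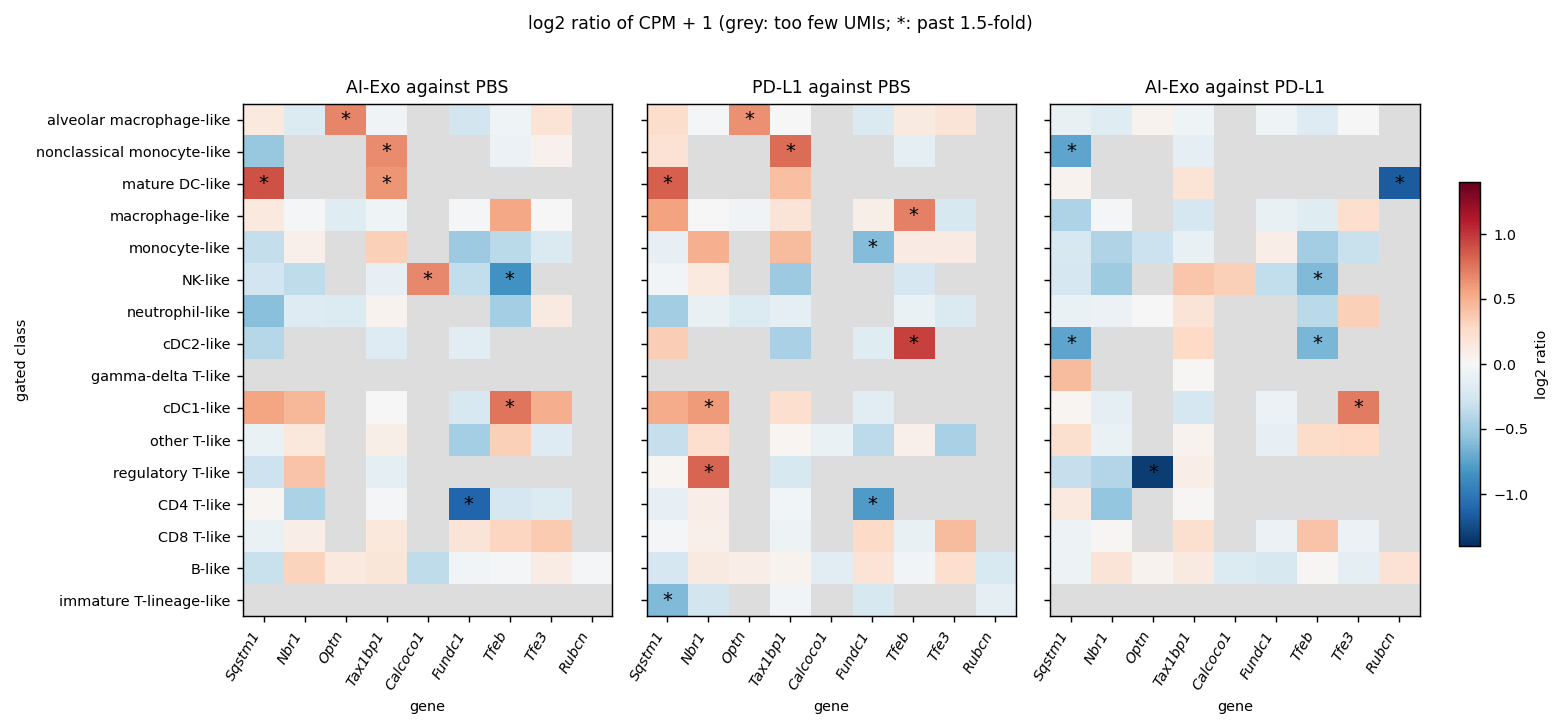
Log2 ratio of CPM + 1 (colour) for each class, down, and member, across, in AI-Exo against PBS, PD-L1 against PBS and AI-Exo against PD-L1, with a star for pairs past 1.5-fold and grey for pairs that failed the filter on low values or classes under 50 barcodes. Most pairs lie near 0, and Sqstm1 in mature DC-like barcodes is 0.89 in AI-Exo and 0.83 in PD-L1 against PBS.

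Sqstm1 gave the largest counts. Mature DC-like barcodes, which carry the migratory dendritic cell genes Ccr7 and Fscn1, held 571 CPM (516 to 629) in AI-Exo and 550.0 (501 to 602) in PD-L1, against 308 (267 to 354) in PBS, from 405, 470 and 202 UMIs. The log2 ratio to PBS was 0.89 (0.64 to 1.14) in AI-Exo and 0.83 (0.60 to 1.08) in PD-L1. Both treated libraries were high and PBS low, and AI-Exo differed from PD-L1 by 0.05 (-0.14 to 0.25). The UMIs came from 54, 61 and 43 of 63, 70 and 57 barcodes, with at most 39, 44 and 28 in 1 barcode. Markers of alveolar macrophages, of the 16 classes the one with most Sqstm1, summed to 15.5, 44.5 and 24.4 CPM in these barcodes. By the estimated limit on free RNA, which can be too low, up to 8.50, 6.50 and 11.1 CPM of Sqstm1 could come from it. Of all genes in the class, 11.4% were higher by this size in AI-Exo and 7.85% in PD-L1.

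Neutrophil-like barcodes held 405 CPM (389 to 420.0) of Sqstm1 in AI-Exo and 431 (415 to 447) in PD-L1, against 606 (583 to 629.8) in PBS. The log2 ratios of -0.58 (-0.66 to -0.51) and -0.49 (-0.57 to -0.41) lay just inside the 1.5-fold size. PBS was the high library, and the intervals of the treated libraries did not reach it. Within the chemokine state the ratios were -0.61 (-0.79 to -0.44) and -0.81 (-1.03 to -0.61), and among the remaining neutrophils -0.40 (-0.49 to -0.31) and -0.38 (-0.47 to -0.30), so the direction was the same inside states. The median ratio of all genes in neutrophil-like barcodes was 0.04 in AI-Exo and -0.18 in PD-L1 against PBS. Mrnip, the overlapping gene, held 14.9, 13.4 and 23.3 CPM there.

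Sqstm1 in immature T-lineage-like barcodes was 86.8 CPM (80.6 to 93.4) in PD-L1 against 133 (124 to 143) in PBS, a log2 ratio of -0.61 (-0.77 to -0.47), where 4.78% of all genes were lower by 1.5-fold. The ratio lay between -0.64 and -0.29 over 10 alternative settings. Its 713 and 835 UMIs came from 738 and 742 barcodes with 8213491 and 6261672 UMIs in all. CPM is a share of all UMIs, so the ratio is not one of Sqstm1 UMIs per barcode. AI-Exo had a single barcode of the class and gives no value. In cDC2-like barcodes Sqstm1 stood at 324 CPM in AI-Exo, 541 in PD-L1 and 427 in PBS, and in nonclassical monocyte-like barcodes at 547, 912 and 791 CPM. AI-Exo was the lowest library in both classes, with log2 ratios to PD-L1 of -0.74 (-0.99 to -0.50) and -0.74 (-1.01 to -0.47), in classes where 9.95% and 12.4% of all genes were lower by 1.5-fold. In macrophage-like barcodes PD-L1 was the high library, with 515 CPM in AI-Exo, 693 in PD-L1 and 467 in PBS, and the ratio of PD-L1 to PBS was 0.57 (0.45 to 0.69), just under 1.5-fold. In Arg1-negative macrophage-like barcodes it was 0.72 (0.59 to 0.86) and in Arg1-positive ones -0.16 (-0.48 to 0.14), from 939 against 777 and from 101 against 572 UMIs. cDC1-like barcodes held 300.4, 294 and 205 CPM, with ratios to PBS of 0.55 (0.37 to 0.73) in AI-Exo and 0.52 (0.32 to 0.72) in PD-L1. Against PBS, mature DC-like barcodes were thus the only class where Sqstm1 passed 1.5-fold in both treated libraries. Inside that size, both treated libraries lay above PBS in cDC1-like, macrophage-like and alveolar macrophage-like barcodes, and below it in neutrophil-like, monocyte-like, NK-like and B-like ones (139, 146 and 172 CPM in the last).

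**Figure D4:**
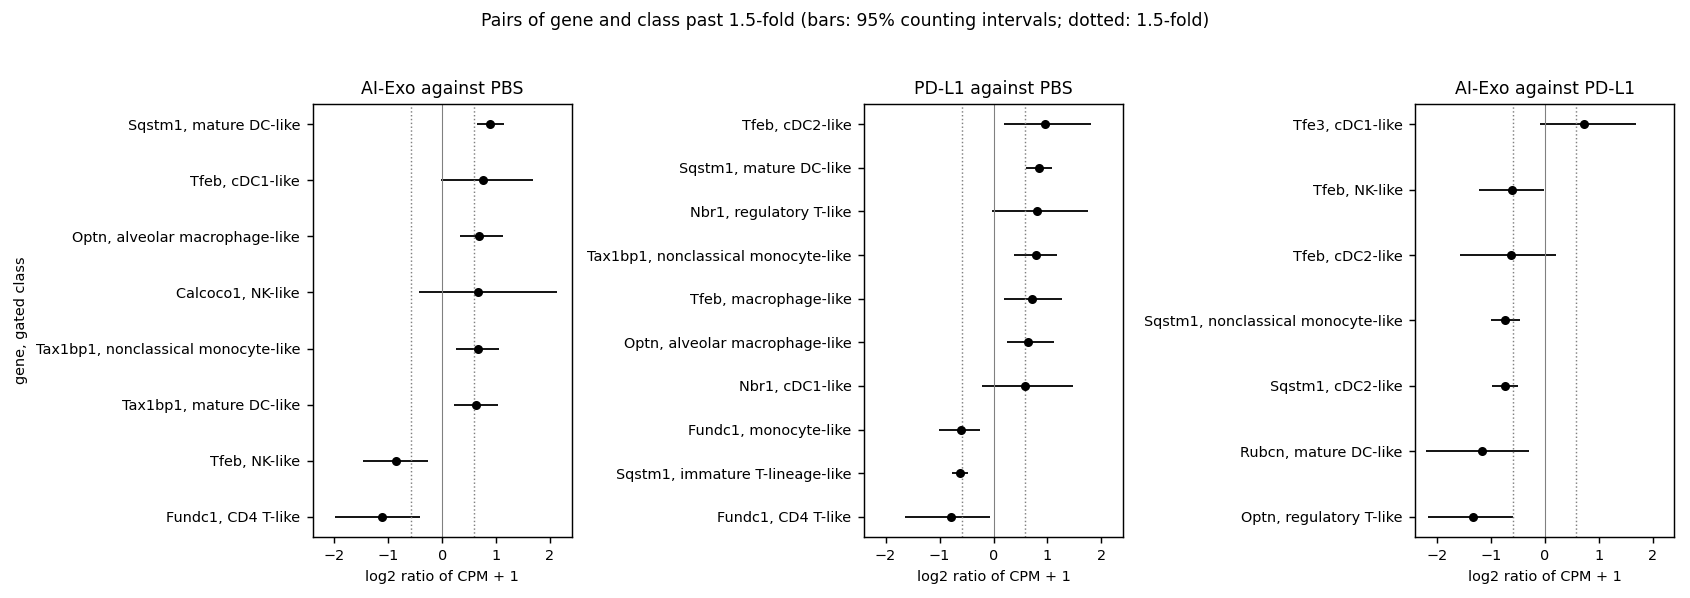
Log2 ratio of CPM + 1 of each member and class pair past 1.5-fold (dotted lines) in the 3 comparisons, with bars for the 95% counting interval of the ratio. Sqstm1 in mature DC-like barcodes has short intervals in both comparisons with PBS (0.64 to 1.14 in AI-Exo and 0.60 to 1.08 in PD-L1), while that of Calcoco1 in NK-like barcodes (-0.43 to 2.13) crosses 0.

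Optn in alveolar macrophage-like barcodes was 24.2 CPM (21.0 to 27.8) in AI-Exo and 23.4 (19.6 to 27.8) in PD-L1, against 14.7 (11.5 to 18.5) in PBS, with log2 ratios to PBS of 0.69 (0.33 to 1.13) and 0.64 (0.25 to 1.11). Both treated libraries lay above PBS and close to each other, and 3.36% and 1.52% of all genes in the class were higher by 1.5-fold. In PBS a single barcode held 12 of the 72 UMIs, and 134, 87 and 44 barcodes had any. Markers of neutrophils, where Optn was highest, summed to 246, 225 and 253 CPM in these barcodes, with 11 of 11 detected, against 22090, 24499 and 22311 CPM in neutrophil-like barcodes. Depth differed as well, with medians of 13264, 12190 and 10616 UMIs. In regulatory T-like barcodes Optn was 19.3 CPM in AI-Exo, 50.2 in PD-L1 and 9.69 in PBS, from 27, 33 and 6 UMIs in 22, 19 and 6 barcodes, and the ratio of AI-Exo to PD-L1 was -1.33 (-2.17 to -0.60), where 9.07% of all genes were lower by 1.5-fold. Neutrophil markers summed there to 239, 301 and 270 CPM. Their part in these Optn values was not tested.

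Tax1bp1 in nonclassical monocyte-like barcodes was 223 CPM (176 to 279) in AI-Exo and 244 (193 to 304) in PD-L1, against 141 (121 to 163) in PBS, from 78, 78 and 183 UMIs. The log2 ratios to PBS were 0.66 (0.26 to 1.05) and 0.78 (0.39 to 1.18), in a class where 15.1% and 18.5% of all genes were higher by this size. Monocyte-like barcodes pointed the same way, at 179.8 and 193 CPM against 142 in PBS, with ratios of 0.34 (0.20 to 0.48) and 0.44 (0.31 to 0.58). In mature DC-like barcodes Tax1bp1 was 197, 172 and 128 CPM, a ratio to PBS of 0.62 (0.22 to 1.03) in AI-Exo and 0.42 (0.03 to 0.83) in PD-L1. The AI-Exo ratio was past 1.5-fold, where 11.4% of all genes were higher by that size. Markers of neutrophils, the class highest in Tax1bp1, summed to 516, 419 and 296 CPM in mature DC-like and 910.3, 740.1 and 746 CPM in nonclassical monocyte-like barcodes, and their part in these values was not tested.

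Fundc1 was lower than in PBS by 1.5-fold in CD4 T-like barcodes of both treated libraries. CD4 T-like barcodes held 10.1 CPM (6.43 to 15.2) in AI-Exo and 12.9 (8.17 to 19.3) in PD-L1, against 23.0 (16.6 to 31.1) in PBS, from 23, 23 and 42 UMIs. The ratios were -1.11 (-1.98 to -0.41) and -0.79 (-1.64 to -0.07), and 6.85% and 5.9% of all genes in the class were lower by 1.5-fold. Monocyte-like barcodes held 20.9, 19.6 and 30.2 CPM from 71, 73 and 291 UMIs, with ratios of -0.51 (-0.93 to -0.16) in AI-Exo and -0.60 (-1.02 to -0.25) in PD-L1. The PD-L1 ratio was past 1.5-fold, in a class where 11.4% of all genes were lower by that size. CD8 T-like barcodes pointed the other way, at 14.7, 15.6 and 12.8 CPM. For Nbr1, ratios of PD-L1 to PBS of 0.81 in regulatory T-like and 0.59 in cDC1-like barcodes had intervals that reached below 0 (-0.03 to 1.74 and -0.21 to 1.47), on 34 against 18 and on 26 against 26 UMIs. In those classes 6.63% and 7.52% of all genes were higher by 1.5-fold. For Calcoco1 the single value past 1.5-fold, 13.2 CPM in AI-Exo against 7.96 in PBS in NK-like barcodes, rested on 44 and 7 UMIs and its interval also held 0 (-0.43 to 2.13). There, 6.64% of all genes were higher by 1.5-fold.

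Tfeb differed in opposite ways by cell type in AI-Exo. NK-like barcodes held 22.3 CPM (17.5 to 27.9) in AI-Exo, 34.6 (24.4 to 47.7) in PD-L1 and 40.9 (28.7 to 56.7) in PBS, from 74, 37 and 36 UMIs, so AI-Exo was low, with ratios of -0.85 (-1.47 to -0.26) to PBS and -0.61 (-1.22 to -0.03) to PD-L1, where 6.85% and 4.1% of all genes were lower by 1.5-fold. Neutrophil-like barcodes also had their lowest level in AI-Exo, 66.7 CPM, with 86.7 in PD-L1 and 92.9 in PBS, a ratio to PBS of -0.47 (-0.67 to -0.28), and monocyte-like barcodes likewise, -0.38 (-0.71 to -0.07). Granule-rich barcodes were 8.29%, 2.89% and 2.10% of the neutrophil-like class in AI-Exo, PD-L1 and PBS. Among the remaining neutrophils Tfeb was 78.9, 89.3 and 98.5 CPM, and in the chemokine state 64.0, 91.7 and 82.7 CPM. The granule-rich state held 31.5, 43.1 and 37.5 CPM, and the part of these shares in the class ratio was not tested. In cDC1-like barcodes AI-Exo was high, 17.0 CPM, with 10.0 in PD-L1 and 9.70 in PBS, on 32, 14 and 21 UMIs, and its ratio to PBS of 0.75 had an interval that reached 0 (-0.03 to 1.68). This ratio stayed past 1.5-fold in 6 of 9 alternative settings (0.46 to 0.93), and neutrophil markers summed to 205, 187 and 154 CPM in these barcodes. Of all genes in the class, 6.67% were higher by 1.5-fold in AI-Exo than in PBS. Both treated libraries lay above PBS in macrophage-like barcodes, with 33.6 CPM in AI-Exo, 38.0 in PD-L1 and 22.9 in PBS, ratios to PBS of 0.54 in AI-Exo, whose interval just reached 0 (upper end 1.11), and of 0.71 (0.20 to 1.27) in PD-L1. PD-L1 was the high library in cDC2-like barcodes, with 28.4 CPM in AI-Exo, 44.7 in PD-L1 and 22.6 in PBS, a ratio to PBS of 0.96 (0.19 to 1.80). AI-Exo against PD-L1 in cDC2-like barcodes gave -0.64, with an interval that held 0 (-1.57 to 0.21). Of all genes, 6.3% in macrophage-like and 8.43% in cDC2-like barcodes were higher by 1.5-fold in PD-L1 than in PBS. In cDC2-like barcodes 9.95% of all genes were lower by that size in AI-Exo than in PD-L1. The macrophage-like ratio of PD-L1 to PBS was 0.21 (-0.38 to 0.81) among Arg1-negative barcodes and 2.11 (0.89 to 3.52) among Arg1-positive ones, the second on 11 against 12 UMIs, and Arg1-positive barcodes were 13.6% of the class in PD-L1 against 33.9% in PBS. B-like barcodes differed little in Tfeb, with a ratio of -0.03 (-0.25 to 0.20) in AI-Exo and -0.04 (-0.29 to 0.21) in PD-L1 against PBS.

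Tfe3 passed the filter in 10 classes of AI-Exo against PBS and 7 of PD-L1 against PBS and reached 1.5-fold in none of them. In AI-Exo against PD-L1 it passed that size in cDC1-like barcodes (0.72, -0.09 to 1.68), where 5.22% of all genes were higher by 1.5-fold. Its ratios to PBS ranged between -0.20 and 0.50 in AI-Exo and between -0.46 and 0.45 in PD-L1. Rubcn in B-like barcodes had a ratio of -0.02 (-0.18 to 0.14) in AI-Exo and -0.21 (-0.40 to -0.04) in PD-L1 against PBS. In mature DC-like barcodes Rubcn was 19.7 CPM (10.8 to 33.1) in AI-Exo, 45.6 (32.5 to 62.4) in PD-L1 and 15.2 (7.31 to 28.0) in PBS, so PD-L1 was high, and the ratio of AI-Exo to PD-L1 was -1.17 (-2.21 to -0.30), where 7.9% of all genes were lower by 1.5-fold. Its 14, 39 and 10 UMIs lay in 13, 27 and 9 barcodes, and B cell markers summed to 43.7, 45.6 and 15.2 CPM there, against 8528, 8528 and 8853 CPM in B-like barcodes.

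The wider pathway was described with lists of other genes. Of pairs of a gene and class among other cargo receptors and their kinase TBK1, 7 of 169 were higher and 5 lower in AI-Exo than in PBS, and 12 of 175 higher and 14 lower in PD-L1. Among the ATG8 family, 1 of 62 was higher and 2 lower in AI-Exo, and 0 of 64 higher and 2 lower in PD-L1. Map1lc3b, which makes LC3B, did not reach 1.5-fold against PBS in any class of either library, and held 1035, 1297 and 1121 CPM in neutrophil-like barcodes. Among lysosomal and autophagy targets of TFEB and TFE3, 27 of 307 pairs were higher and 17 lower in AI-Exo, and 24 of 320 higher and 22 lower in PD-L1. Regulators of TFEB and TFE3 counted 4 higher and 10 lower of 161 in AI-Exo and 7 higher and 8 lower of 170 in PD-L1. Partners of Rubicon counted 5 higher and 4 lower of 147, and 6 higher and 8 lower of 154. These shares ran from 0 to 8.79%, beside 5.91% to 6.44% over all genes.

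A list of 12 genes of the NRF2 pathway, which holds NRF2 targets, Nfe2l2 (the gene of NRF2) and its inhibitor Keap1 but not Sqstm1, had larger shares in both directions, with 18 of 106 pairs higher (17%) and 13 lower (12.3%) in AI-Exo against PBS, and 15 of 109 higher (13.8%) and 22 lower (20.2%) in PD-L1. Nfe2l2 alone gave 3 of the higher pairs in AI-Exo and 5 in PD-L1. The heme oxygenase Hmox1 took much of the lower count, being lower in 7 of 10 classes in AI-Exo and 9 of 11 in PD-L1. Macrophage-like barcodes held 663, 529 and 1626 CPM of Hmox1 in AI-Exo, PD-L1 and PBS, and B-like barcodes 11.9, 6.23 and 43.4 CPM. No free RNA limit was printed for Hmox1. The part of free RNA or mixed barcodes in its values was not tested, so the classes may not be independent. In alveolar macrophage-like barcodes Hmox1 went the other way, at 620 and 633 CPM against 386 in PBS. There, 3 of the 10 genes of the list that passed the filter were higher in each treated library and 0 lower, beside 3.36% and 1.52% of all genes higher, with a list median of 0.38 in AI-Exo and 0.43 in PD-L1 beside -0.05 and -0.04 over all genes. Slc7a11, the cystine transporter, was the largest of them, with 48.3 and 54.5 CPM against 10.6 in PBS. Nfe2l2 stood at 310, 328 and 236 CPM in that class, and Sqstm1 differed there by a ratio of 0.14 (0.08 to 0.19) in AI-Exo and 0.25 (0.19 to 0.31) in PD-L1, both inside 1.5-fold.

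Mature DC-like barcodes, where Sqstm1 was high in both treated libraries, had 6 of 14 lysosomal and autophagy targets higher and 0 lower in AI-Exo, with a median of 0.26 beside 0.01 over all genes, and 3 of 14 higher and 0 lower in PD-L1, with a median of 0.22 beside -0.02. Of all genes in the class, 11.4% were higher and 9.87% lower in AI-Exo, and 7.85% higher and 7.63% lower in PD-L1. Cathepsin D (Ctsd) was higher in both, at 56.4 and 64.4 CPM against 24.4 in PBS. In AI-Exo cathepsin L (Ctsl) reached 80.3 CPM against 16.8 in PBS, from 57 and 11 UMIs. The filter on low values summed the UMIs of both libraries, and 14 of the 33 listed targets passed it. A gene with few UMIs in PBS, such as Ctsl, could thus pass through the treated library, where it was high. The shares over all genes used the same filter. Its part in the counts of higher and lower targets was not tested, nor was a link of these targets to Sqstm1. Neutrophil-like barcodes, where Sqstm1 was low in both, held 33.3 and 20.6 CPM of the mitophagy receptor Bnip3 against 74.2 in PBS, with log2 ratios of -1.13 (-1.41 to -0.91) and -1.80 (-2.15 to -1.55). Cathepsin L was also low there, at 300.4 and 348 CPM against 583 in PBS. Of all genes in neutrophil-like barcodes, 4.73% were lower by 1.5-fold in AI-Exo and 11.3% in PD-L1. Cybb, the oxidase subunit that acts with Rubicon in LC3-associated phagocytosis, was 344 CPM in AI-Exo, 155 in PD-L1 and 227 in PBS in neutrophil-like barcodes, and 691, 562 and 1040 CPM in monocyte-like barcodes. In monocyte-like barcodes the ER-phagy receptor Retreg1 was 157 and 180.3 CPM against 88.3 in PBS, and the TFE3 and TFEB target Gpnmb was 54.7 CPM in PD-L1 against 15.3 in PBS. Of all genes in that class, 8.01% were higher by 1.5-fold in AI-Exo and 13.8% in PD-L1. Apart from Cybb, these neutrophil and monocyte genes were printed as ends of their lists, picked by their ratios. Values of the neutrophil genes within the neutrophil states were not computed.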

How the data were processed

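The authors deposited matrices of raw UMI counts for all barcodes, holding 76512500 UMIs in AI-Exo, 65997942 in PD-L1 and 68386729 in PBS. The file headers name Cell Ranger 7.1.0 and the submitters' processing notes 3.0.2. Genome build, annotation and the counting of introns and strand were not given in the sources used here. A marker counted as present in a barcode at 1 UMI or more and at least 100 CPM of that barcode, and a lineage gate needed 3 to 5 markers of its list. No doublet caller was run. CPM carry exact Poisson intervals, ratios exact binomial intervals and shares exact Clopper-Pearson intervals. Ratios are log2 of CPM + 1, which pulls low genes toward 0. Thinning drew 1000 UMIs per barcode without replacement and left out shallower barcodes (at most 31 neutrophil-like and 16 B-like barcodes of a library). The code was tested on simulated counts. Overlapping genes are from GENCODE. Named genes are all members, the ends of each list in the 4 largest classes, of which some are printed, Map1lc3b, Lamp1, Ctsd, Hmox1, Nfe2l2, Mitf, Tfec and Cybb. Slc7a11 in alveolar macrophages and Ctsl in mature DCs were chosen after their values were seen. Members and lists were chosen with earlier results of these data known. Python 3.11.15, numpy 2.4.6, scipy 1.17.1 and pandas 2.3.3 were used.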

Additional observations from a re-analysis of the deposited data

Results flagged for a closer look

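Opposite directions of the same gene in different cell types within 1 comparison, each past 1.5-fold, drew attention for 2 members, and the difference between the cell types was not tested because each rests on 1 library per group. Tfeb in AI-Exo against PBS had a log2 ratio of -0.85 (-1.47 to -0.26) in NK-like barcodes, from 74 against 36 UMIs. In cDC1-like barcodes it was 0.75, from 32 against 21 UMIs, with an interval that held 0 (-0.03 to 1.68). Sqstm1 in PD-L1 against PBS had a ratio of -0.61 (-0.77 to -0.47) in immature T-lineage-like barcodes, from 713 against 835 UMIs. That ratio stayed past 1.5-fold in 6 of 10 alternative settings. In mature DC-like barcodes it was 0.83 (0.60 to 1.08), from 470 against 202 UMIs.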

How the results depend on the processing

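Counts of member and class pairs past 1.5-fold moved by over 1.5 times under 6 of the alternatives, with no ratio past that size reversing. Relative to 6 higher and 2 lower in AI-Exo against PBS, 7 and 3 in PD-L1 against PBS, and 1 and 6 in AI-Exo against PD-L1, a pseudocount of 10 gave 3 higher in the first, 4 and 0 in the second and 0 higher in the third. Without a filter on low counts they were 17 and 14, 22 and 8, and 10 and 18. With at least 200 UMIs, 0 were lower in the first, 3 higher in the second, and 0 higher and 2 lower in the third. A stricter gate gave 3 higher in the first, 3 and 0 in the second and 1 lower in the third. Giving every barcode to its most likely class gave 10 higher in the first and 4 higher in the third. The mean over barcodes gave 5 lower in the first and 2 higher in the third. The number of pairs tested moved as well, from 77, 77 and 75 to 126, 135 and 135 without the filter. With at least 200 UMIs 49, 52 and 47 pairs were tested, and with the stricter gate 61, 63 and 63. With every barcode given a class 98, 92 and 95 were tested. Shares over all genes were not computed under the alternatives. A minimum of 1000 UMIs, at most 10% mitochondrial UMIs, centring on the median ratio and subtracting free RNA kept each count within 1.5 times. The cause was not tested. The stricter gate left 37 mature DC-like barcodes in PBS, under the minimum of 50, so that class was not compared with PBS under it. Sqstm1 in mature DC-like barcodes stayed past 1.5-fold in all 9 alternatives run on it, between 0.81 and 0.91 in AI-Exo and 0.77 and 0.85 in PD-L1. Optn in alveolar macrophage-like barcodes did so in 8 of 10 (0.47 to 0.79) and 7 of 10 (0.44 to 0.82), Tfeb in NK-like barcodes of AI-Exo against PBS in 9 of 9 (-1.02 to -0.66), and Sqstm1 in immature T-lineage-like barcodes in 6 of 10 (-0.64 to -0.29). Other described pairs lost that size under some settings. Nbr1 in PD-L1 against PBS kept it in 8 of 9 in regulatory T-like barcodes (0.20 when every barcode was given a class) and in 4 of 9 in cDC1-like ones (0.07 with the stricter gate). Tfeb kept it in 6 of 9 in macrophage-like barcodes of PD-L1 against PBS (0.26 as the mean over barcodes), in 6 of 9 in cDC1-like barcodes of AI-Exo against PBS (0.46 with a pseudocount of 10) and in 4 of 8 in cDC2-like barcodes of AI-Exo against PD-L1 (-0.09 when every barcode was given a class). Sqstm1 in nonclassical monocyte-like barcodes of AI-Exo against PD-L1 kept it in 8 of 9 and moved to -0.36 when every barcode was given a class. The stricter gate was not run there either, as it left 25 barcodes in AI-Exo and 39 in PD-L1. No paired analysis was possible because each group has 1 library and no replicate numbers. For the same reason no library could be left out. Members with few UMIs in a class (Calcoco1, Rubcn outside B-like barcodes, Nbr1 in dendritic classes) are limited by depth.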

Other observations

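Mast cell- or basophil-like barcodes were too few to compare, at 7, 10 and 3 in AI-Exo, PD-L1 and PBS, but held the highest Sqstm1 of any class, 3962, 1787 and 1819 CPM from 104, 80 and 29 UMIs. Tax1bp1 was 2019, 1050 and 878 CPM in them. Both levels rest on a handful of barcodes.

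Mrnip, which overlaps Sqstm1 on the opposite strand, stood at 24.7, 23.8 and 14.5 CPM in alveolar macrophage-like barcodes, where Sqstm1 stood at 921, 993 and 837 CPM.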
